A study of Mus musculus with 18 samples.

Results

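Afp, Ttr, Apoa1, Apob, Apoe, Apoc1, Amn, Cubn, Lrp2 and Ihh are 10 genes known from the visceral endoderm, and are followed here through mouse stem cells kept in low oxygen. They were chosen by name, and a gene was taken from each table of expression values that held a row with its symbol. Of the 10, 9 had a row in at least 1 of 3 tables, which together held 14804 genes. The ESC table held 6 of them (Apob, Apoe, Apoc1, Amn, Cubn and Lrp2) among 13578 genes, the table of TSCs held 5 (Apoe, Apoc1, Amn, Cubn and Lrp2) among 13518, and that of XEN cells 6 (Afp, Ttr, Apoe, Cubn, Lrp2 and Ihh) among 11538. Apoe, Cubn and Lrp2 had a row in all 3 tables. Apoa1 had none and was not analysed here.

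RNA was sequenced from E14 embryonic stem cells (ESCs), trophoblast stem cells (TSCs) and extra-embryonic endoderm stem (XEN) cells, which model the epiblast, the trophectoderm and the primitive endoderm. Each was cultured at 20% oxygen (normoxia) or for 2 days or 7 days at 2% oxygen (hypoxia), with 2 replicates in each of the 9 groups and 18 libraries in all. No gene was deleted or altered in any group. ESCs were grown without feeder cells in serum and LIF, TSCs on feeder fibroblasts with FGF4 and heparin, and XEN cells in medium conditioned by fibroblasts. Each cell type was a cultured line, so the replicates are separate samples of a line and not separate embryos.

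The visceral endoderm is the absorptive epithelium that surrounds the early embryo. It takes up maternal proteins and lipids at its outer face and exports carrier proteins and lipoproteins towards the embryo. Cubilin (Cubn) is a large peripheral membrane protein that needs amnionless (Amn) to reach the cell surface, and together with megalin (Lrp2), a member of the LDL receptor family, it internalises apolipoproteins, vitamin carriers and albumin. Ihh is a secreted Hedgehog ligand that the visceral endoderm uses to signal to neighbouring tissue.

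Promoter sequence is shown for the members whose values carry the main contrasts below. Ihh differed most from normoxia in XEN cells, Amn differed between days of hypoxia in TSCs, and Afp is the classical visceral endoderm marker that was the lowest member in XEN cells. The 250 bases before the RefSeq start of each gene (build GRCm38.p6) were read 5′ to 3′ on the strand of the gene, at chr1:74951673-74951922 on the minus strand for Ihh, chr12:111270846-111271095 on the plus strand for Amn and chr5:90490464-90490713 on the plus strand for Afp. Capitals mark the short motifs that were searched.
Ihh: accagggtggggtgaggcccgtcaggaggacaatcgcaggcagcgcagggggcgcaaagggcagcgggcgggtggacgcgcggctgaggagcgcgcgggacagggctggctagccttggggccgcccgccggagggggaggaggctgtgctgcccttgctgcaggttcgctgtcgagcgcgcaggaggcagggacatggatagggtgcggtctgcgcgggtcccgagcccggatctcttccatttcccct
Amn: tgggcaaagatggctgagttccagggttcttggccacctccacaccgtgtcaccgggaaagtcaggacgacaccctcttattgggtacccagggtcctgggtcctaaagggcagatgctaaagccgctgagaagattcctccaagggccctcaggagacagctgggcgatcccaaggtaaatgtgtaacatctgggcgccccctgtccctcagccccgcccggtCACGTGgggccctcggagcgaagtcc
Afp: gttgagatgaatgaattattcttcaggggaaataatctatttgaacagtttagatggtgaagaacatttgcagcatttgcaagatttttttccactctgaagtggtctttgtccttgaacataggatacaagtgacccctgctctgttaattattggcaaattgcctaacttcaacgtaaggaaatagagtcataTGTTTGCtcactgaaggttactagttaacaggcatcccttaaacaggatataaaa

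The motifs, searched on both strands, were ACGTG (the core bound by hypoxia-inducible factors), a pair of GATA factor motifs (AGATAA as the first and TGATAA as the second) and a pair of forkhead motifs (TGTTTGC as the first and TGTTTAC as the second). Of the 10 members, 8 were searched, with 10 promoter windows, 3 of them for Apoe. Apoc1, which had no promoter window, and Ttr, which was left out with chromosome 18, were not searched. Among the windows searched, ACGTG was found in that of Amn alone. It was matched there once on each strand, and both matches overlap in the same 6 bases, which start 26 bases before the gene. ACGTG was held by 16.6% of all 32851 promoter windows of this length. The first forkhead motif was found once in the Afp window, 55 bases before the start, once for Apob and 2 times for Apoa1, against 4.30% of all windows. No window searched for a member held either GATA motif or the second forkhead motif, which were in 9.99%, 7.94% and 3.17% of all windows. The Ihh window held none of the motifs. These are matches of letters and say nothing of binding.

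The deposited values are TPM, which are scaled to 1000000 per library, and each table was normalized on its own. In each library, the TPM multiplied by the distance from a gene's start to its end fell within 0.05 of a whole multiple of a common step for 98.8% of values in the median library, against 9.86% to 12.5% with the summed length of the exons. The deposited TPM had therefore been divided by the distance from start to end, with introns. That divisor is 14.4 times the exon length for Cubn (exon length 14935 bases), 9.68 times for Lrp2 (16701 bases), 7.62 times for Ttr and 1.44 times for Apoe. For comparisons of levels between genes the whole reads behind the values, 35592641 to 75204029 per library, were therefore divided by exon length (exon-length TPM). Tests within a cell type used the deposited TPM.

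In XEN cells the receptors were the most abundant members and the classical secreted markers the least. Cubn, at chr2:13276338-13491813, was measured at 186 and 250 exon-length TPM in normoxia, 117 and 117 at day 2 and 105 and 178 at day 7. Lrp2, at chr2:69424340-69586065, was at 91.6 and 145 in normoxia, 69.3 and 133 at day 2 and 112 and 244 at day 7. The ranges of Cubn and Lrp2 over the 6 XEN libraries overlapped, so their order was not resolved. On average Cubn ranked at percentile 88.3 and Lrp2 at percentile 84.7 of the genes in the XEN table.

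Apoe, at chr7:19696109-19699188, encodes a ligand of LDL receptor family members and came next in XEN cells, between 26.8 and 65.8 exon-length TPM, below every value of Lrp2. Ihh, at chr1:74945315-74951672, lay between 11.4 and 51.5 and overlapped Apoe. Ttr, at chr18:20665280-20674321, encodes transthyretin, a carrier of thyroid hormone and of retinol-binding protein, and lay between 3.03 and 15.1. Its range overlapped that of Ihh. Afp, at chr5:90490737-90508907, encodes the fetal plasma protein alpha-fetoprotein and was lowest, between 0.281 and 2.68, which rests on 8 to 112 reads per library. Its mean percentile in the table was 9.75.

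**Figure D1:**
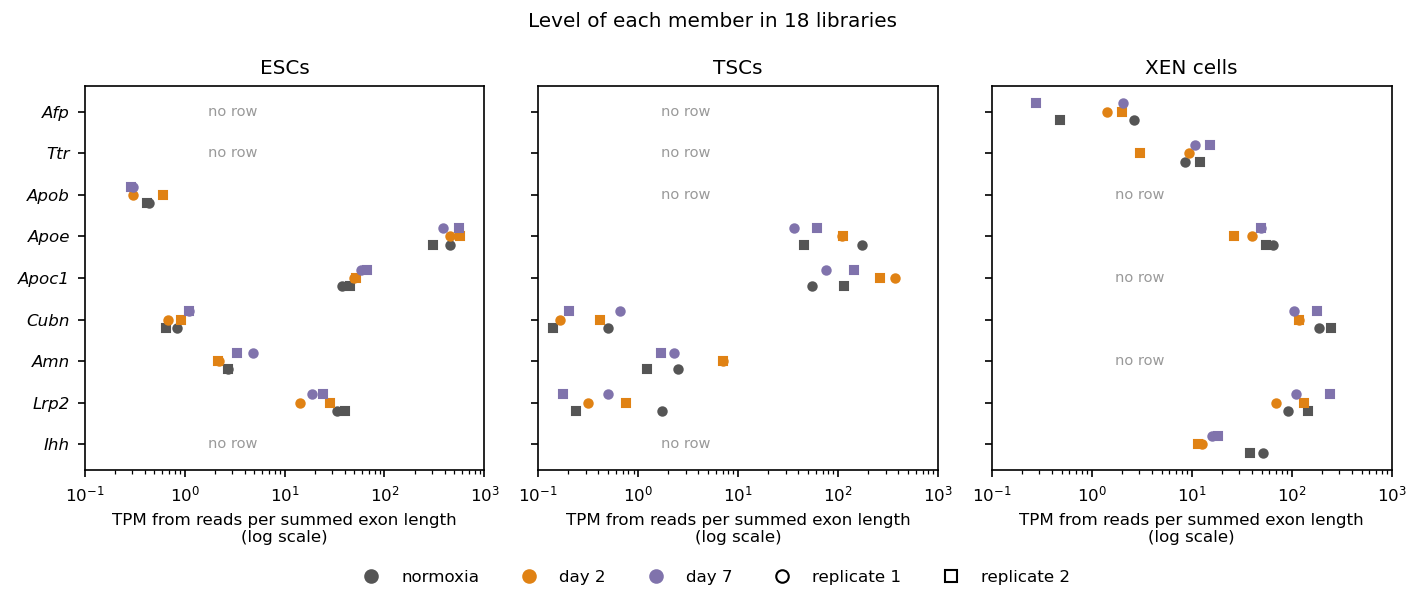
TPM computed from whole reads and summed exon length (log axis) for the 9 members with a row, in ESCs, TSCs and XEN cells. Each point is a library, colour gives the condition and shape the replicate. Cubn and Lrp2 lie above 69 in every XEN library, and Cubn at 1.11 or lower in every ESC and TSC library.

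Cubn and Lrp2 spanned a wider range over the cell types than Apoe, the other member with a row in all tables. Cubn was at 0.646 to 1.11 exon-length TPM in ESCs and 0.141 to 0.659 in TSCs. The lowest XEN library was thus 94.5 times the highest ESC library and 160 times the highest TSC library. Lrp2 was at 14.3 to 39.9 in ESCs and 0.176 to 1.73 in TSCs, and here the lowest XEN library was 1.74 times the highest ESC library and 40.1 times the highest TSC library. These ratios are descriptions, because no test was made across separately normalized tables. Amn, the membrane partner of Cubn at chr12:111271095-111276426, had no row in the XEN table and was at 2.16 to 4.88 in ESCs and 1.24 to 7.07 in TSCs. Apoe was highest in ESCs, at 304 to 575 exon-length TPM, where its mean percentile was 97.3, and lay between 35.8 and 172 in TSCs. Apoc1, at chr7:19689481-19692660, encodes a small apolipoprotein that inhibits lipoprotein uptake, and lies 3448 bases from Apoe on the same strand. It was at 37.3 to 67.0 in ESCs and 54.6 to 374 in TSCs. Apob, at chr12:7977648-8016835, the structural protein of large lipoproteins, had a row for ESCs alone and was at 0.294 to 0.614, on 42 to 133 reads.

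The labelled cell types were checked against marker lists, as sums of exon-length TPM over a list. The 10 XEN markers summed to 26767 to 38987 in XEN libraries and to at most 3397 elsewhere. Of the XEN sums, Col4a1 made up 10669 to 19233 and Sparc 7447 to 9270. Both are also in the parietal list. Gata4 lay at 915 to 1134 in XEN cells and at most 14.2 elsewhere. Sox17 lay at 419 to 576 in XEN cells and at most 0.484 in ESCs. The 12 ESC markers summed to 11260 to 13510 in ESCs and at most 2032 elsewhere. The 10 TSC markers summed to 6664 to 11872 in TSCs, of which Hand1 made up 4724 to 9774, and at most 214 elsewhere. The 15 parietal endoderm markers, led by Col4a1 and Sparc, summed to 44435 to 66499 in XEN cells, while the 4 of 7 anterior visceral endoderm markers with a row summed to 36.3 to 50.3. The name visceral endoderm describes where these genes are known from, and the XEN libraries held only part of that set. Parietal markers were abundant, Afp was near the bottom of the table and Apoa1, Apob, Apoc1 and Amn had no row. Cubn and Lrp2, in contrast, ranked at mean percentiles 88.3 and 84.7. The marker lists differ in length and genes, so their sums do not place the cells between parietal and visceral endoderm. Fibroblast markers (12 genes) had their highest sums in TSCs, with 1574 in normoxia replicate 1 and 228 in replicate 2, 185 and 834 at day 2 and 382 and 241 at day 7. All 12 had a row in TSCs, against 3 in XEN cells and 6 in ESCs, where they summed to 24.9 to 46.7. In XEN cells they summed to 7.76 and 3.37 in normoxia, 8.51 and 8.34 at day 2 and 47.2 and 17.2 at day 7. Of the day 7 sums, Mmp2 alone made up 44.2 and 13.6.

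Expression was tested with limma on log2(TPM + 0.5) for genes that passed 0.4 TPM in 2 or more of a cell type's 6 libraries. A gene was called DE at a Benjamini-Hochberg adjusted p of at most 0.1 and a fold change over 1.5. All 6 members of the XEN table were tested, 5 of 6 in ESCs (not Cubn) and 3 of 5 in TSCs (not Cubn or Lrp2). The minimum was set in deposited TPM, so it was stricter for genes with long introns, such as Cubn and Lrp2. A fold change is on the log2(TPM + 0.5) scale, in deposited TPM, and understates the change of low genes such as Afp and Apob. In XEN cells Vldlr and Mmp2 are low genes too, and their levels below are given in exon-length TPM. With 2 libraries against 2, an exact permutation test of a single gene cannot go below p = 0.333, so the tests rest on the spread that limma shares across genes. Groups of 2 libraries that do not overlap, as named below, reach only that value, and the share of all genes that do so is not given. In bulk RNA, fewer cells of a type and less RNA per cell cannot be told apart.

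In XEN cells the question was how hypoxia moves the endoderm's own genes. On day 2, 5 of the 6 members were lower than in normoxia, with a median log2 fold change of -0.80 against -0.01 over all genes, and on day 7, 4 were lower, with a median of -0.27 against -0.03. None of the 6 was DE on day 2, where none of the 10894 genes tested was (0%), and none on day 7, where 12 were (0.11%). At an unadjusted p under 0.05, limma found 3 of 6 members on day 2 (Ihh, Apoe and Cubn) against 7.77% of all genes, and 2 of 6 on day 7 (Ihh and Cubn) against 9.01%. On recovered reads, limma-voom also called no member in either comparison. Of 2 fibroblast markers tested in XEN cells, Mmp2, a matrix protease, was DE on day 7. It was at 44.2 and 13.6 exon-length TPM against 0.225 and 0.741 in normoxia (3.97 ± 0.50, limma adjusted p = 0.0959). Limma-voom did not call it. The other, Fbn1, differed by -0.34 ± 0.34 (limma adjusted p = 0.805). Their part in the day 7 values was not tested.

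Ihh had the largest difference of the 6 members in XEN cells. Its deposited TPM were 80.1 and 59.4 in normoxia, 20.4 and 17.9 at day 2 and 24.7 and 28.8 at day 7. All 4 hypoxic libraries lay below both normoxic ones, and the day 7 libraries lay above those of day 2. Recovered reads for Ihh were between 477 and 2005 per library. On day 2 it was 3.54-fold lower (log2 fold change -1.83 ± 0.20 SE, limma adjusted p = 0.241) and on day 7 2.56-fold lower (-1.35 ± 0.20, adjusted p = 0.116), so neither passed the threshold. The unadjusted p was 4.4e-05 on day 2, where the smallest adjusted p of any gene was 0.241. Ihh passed the threshold when normoxia replicate 1 was left out on day 2 (adjusted p = 0.0631, with 0.56% of genes DE) and when normoxia replicate 2 was left out on day 7 (adjusted p = 0.0392, with 1.79%).

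Cubn was at 41.9 and 56.3 deposited TPM in normoxia, 27.2 and 26.4 at day 2 and 23.5 and 40.0 at day 7. Every hypoxic library lay below both normoxic ones, and the day 7 replicates differed from each other more than the day 2 replicates. The log2 fold change was -0.84 ± 0.27 (SE) on day 2 and -0.65 ± 0.27 on day 7, with limma adjusted p of 0.558 and 0.551. Lrp2 was at 30.7 and 48.5 in normoxia, 24.0 and 44.9 at day 2 and 37.3 and 81.7 at day 7, and its groups overlapped throughout. Its log2 fold change was -0.23 ± 0.45 on day 2 and 0.51 ± 0.45 on day 7. The ratio of Cubn to Lrp2, both in exon-length TPM, was 2.03 and 1.73 in normoxia, 1.69 and 0.878 at day 2 and 0.941 and 0.730 at day 7.

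Among the secreted proteins of XEN cells, Apoe was at 148 and 124 deposited TPM in normoxia, 92.9 and 60.5 at day 2 and 112 and 110 at day 7. The day 2 libraries were lowest and the day 7 libraries lay between, without overlap. The log2 fold change was -0.85 ± 0.22 on day 2 (limma adjusted p = 0.456), -0.29 ± 0.22 on day 7 (0.747) and 0.56 ± 0.22 from day 2 to day 7 (0.412). Ttr was at 3.65 and 5.15 in normoxia, 4.14 and 1.29 at day 2 and 4.60 and 6.45 at day 7, so the day 2 mean rested on a single low library. Afp was at 1.61 and 0.290 in normoxia, 0.882 and 1.20 at day 2 and 1.24 and 0.169 at day 7. Its replicates differed by more than its groups, with 95 and 28 reads in normoxia and 85 and 8 on day 7.

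From day 2 to day 7 in XEN cells, 5 of 6 members were higher and Afp was lower, with a median log2 fold change of 0.52 against -0.02 over all genes. None was DE, with 4 DE genes in all (0.0367%). Apoe alone had an unadjusted limma p under 0.05, against 11.9% of all genes. The day 7 libraries of Ihh, Apoe and Ttr lay above both day 2 libraries. For a single gene that separation has an exact permutation p of 0.333, and its share over all genes is not given.

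**Figure D2:**
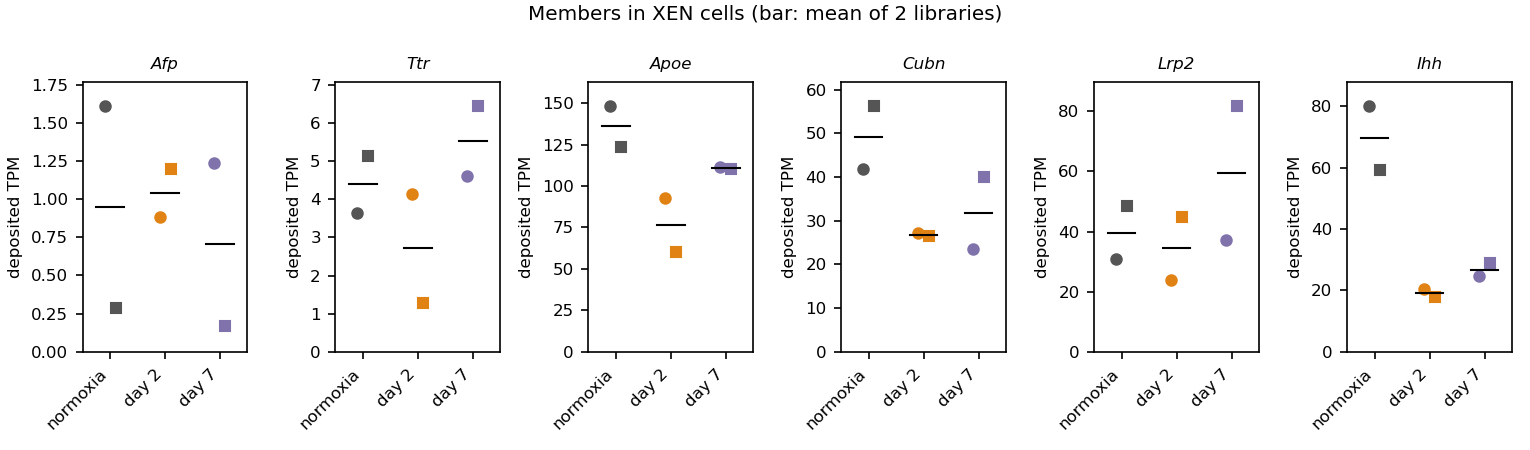
Deposited TPM of the 6 members in XEN cells (linear axes from 0), by condition. Points are libraries (circle, replicate 1; square, replicate 2) and bars the mean of 2. Ihh is at 59.4 or higher in normoxia and at 28.8 or lower in hypoxia.

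For each member the genes nearest to it over the 6 XEN libraries were found by the root-mean-square difference of log2(TPM + 0.5) after centring each gene, as a description over 6 libraries. Nearest to Ihh was Aqp8, a water channel, at a difference of 0.25, with deposited TPM of 629 and 683 in normoxia, 266 and 199 at day 2 and 252 and 386 at day 7. Nudt11 (0.27) and Gipr (0.29) followed. Nearest to Cubn were Plpp3 (0.10), Tent5c (0.12) and Smoc1 (0.12), and to Lrp2 Tril (0.10), Rhob (0.16) and Tmem158 (0.18). Nearest to Apoe were Pmaip1, Mindy2 and Ugt2b34, all at 0.14. Those nearest to Ttr were Gm10226 (0.19), Pcdhb20 (0.19) and Spock1 (0.22), and to Afp Inf2 (0.04), Lhx6 (0.15) and Vstm5 (0.16). All 6 members spanned more than 1 log2 unit over these libraries, from 1.24 for Cubn to 2.13 for Ihh.

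In TSCs, the apolipoprotein Apoc1 and the receptor partner Amn were highest on day 2 of hypoxia and lower again on day 7. Apoc1 was at 40.6 and 83.3 deposited TPM in normoxia, 278 and 194 at day 2 and 54.7 and 99.8 at day 7. Amn was at 2.76 and 1.33 in normoxia, 7.77 and 7.70 at day 2 and 2.46 and 1.72 at day 7. For both genes the day 2 libraries lay above all others, and the normoxic and day 7 libraries overlapped.

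From day 2 to day 7, Amn fell 3.21-fold (log2 fold change -1.68 ± 0.34 SE, limma adjusted p = 0.0359) and Apoc1 3.13-fold (-1.65 ± 0.42, adjusted p = 0.0595). These were 2 of the 3 members tested, in a comparison in which 16.2% of 12481 genes were DE. Apoe was at 242 and 248 on day 2 and 77.4 and 127 on day 7 (-1.30 ± 0.58, limma adjusted p = 0.196). It passed when either normoxic library was left out, which changes the spread used by the test and not this fold change. More genes of the whole table were then DE too. All 3 were lower, with a median of -1.65 against -0.24 over all genes, and 2 of 3 had an unadjusted p under 0.05 against 27.9% of genes. Of the DE genes of this comparison 296 were higher and 1723 lower, a split that became 724 and 982 under median-ratio scaling, which moves the median of all genes to 0.01. Under it Amn was at -1.44 (adjusted p = 0.0466) and Apoc1 at -1.37 (adjusted p = 0.132), so Apoc1 was no longer DE. Neither was DE when day 2 replicate 1, day 7 replicate 1 or day 7 replicate 2 was left out. A single library then stood for a group. DE genes were far fewer over the whole table too, so the loss was not particular to Amn and Apoc1. Without day 2 replicate 2 a single library also stood for day 2, and far more genes stayed DE than in those fits. The cause was not tested. Markers of the TSC state moved in the same comparison. Of 10 TSC markers 5 were lower and 1 (Krt7) higher among DE genes, 3 and 2 under median-ratio scaling. Elf5, a trophoblast stem cell factor, was at 173 and 180 exon-length TPM on day 2 and 40.4 and 33.3 on day 7 (-2.30 ± 0.20, adjusted p = 0.00685), and Cdx2, the trophectoderm factor, differed by -1.68 ± 0.31 (adjusted p = 0.0294). Of 9 tested ESC markers 5 were DE, all lower, Sox2 among them by -2.85 ± 0.20 (adjusted p = 0.00579). Their part in the values of Amn and Apoc1 was not tested.

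Between normoxia and day 2, the log2 fold change was 1.99 ± 0.42 (SE) for Apoc1 (limma adjusted p = 0.174) and 1.75 ± 0.34 for Amn (adjusted p = 0.149), and 0.34 ± 0.58 for Apoe (0.824). None of the 3 was DE, against 0.2% of genes, and 2 of 3 had an unadjusted p under 0.05, against 13.1%. The median was 1.75, against 0.07 over all genes. When normoxia replicate 2 was left out, Apoc1 passed (adjusted p = 0.0911, with 0.401% of genes DE). On day 7 the log2 fold changes against normoxia were 0.34 ± 0.42 for Apoc1, 0.07 ± 0.34 for Amn and -0.96 ± 0.58 for Apoe, with a median of 0.07 against -0.18. None was DE, against 0.385% of genes, and none had an unadjusted p under 0.05, against 10.4%. On recovered reads, limma-voom called none of the 3 in either comparison with normoxia. Without normoxia replicate 2, Apoe passed the threshold on day 7 at -1.93 (adjusted p = 0.0647, with 1.48% of genes DE).

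The spread of Apoe in TSCs came from normoxia, where it was at 380 in replicate 1 and 97.8 in replicate 2. Replicate 1 was also the library with the highest sum of fibroblast markers, 1574 against 228. Lrp2 was highest in that library too, at 0.567 against 0.0774 TPM in replicate 2 (312 against 46 reads). Cubn was at 0.111 against 0.0303 (81 against 24 reads), but was highest in day 7 replicate 1, at 0.142 (119 reads). On day 2 the replicate with the higher fibroblast sum, 834 against 185, had 248 against 242 TPM of Apoe. The ratio of Apoc1 to Apoe, both in exon-length TPM, was 0.318 in normoxia replicate 1 and between 2.10 and 3.42 in the other 5 TSC libraries, against 0.0822 to 0.150 in ESCs. The part of fibroblast RNA in these values was not tested. Without normoxia replicate 1 and day 2 replicate 2, all 3 members were DE on day 2, at 1.74 for Apoc1, 2.18 for Amn and 1.30 for Apoe, but so were 756 genes of the table (6.06%) in place of 25. A single library stands for normoxia and for day 2 in that fit, so its spread rests on the pair of day 7 libraries. Between day 2 and day 7 all 3 were DE in it, Apoe at -1.28 (adjusted p = 0.00115), among 3046 DE genes (24.4%) in place of 2019.

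**Figure D3:**
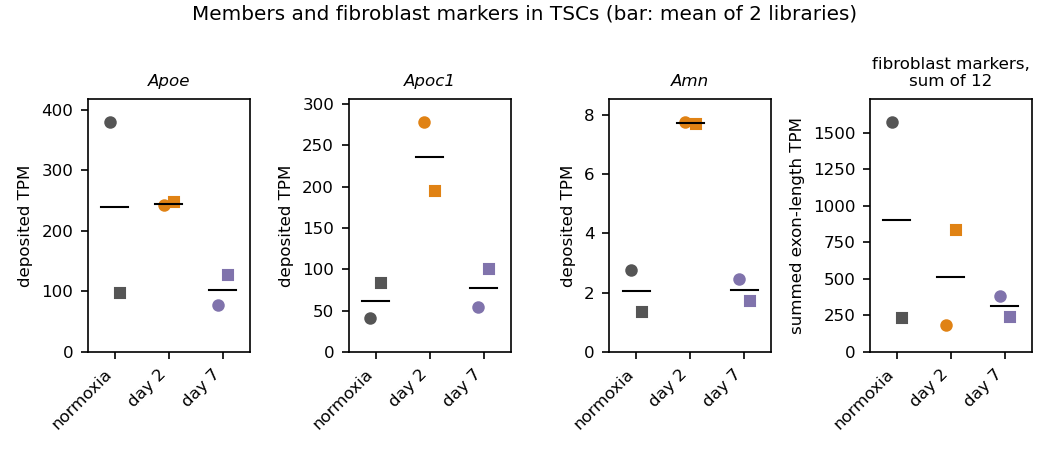
Deposited TPM of Apoe, Apoc1 and Amn in TSCs and the summed exon-length TPM of 12 fibroblast markers (linear axes from 0). Points are libraries (circle, replicate 1; square, replicate 2) and bars the mean of 2. Day 2 is highest for Apoc1 and Amn, while Apoe and the marker sum are highest in normoxia replicate 1.

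In ESCs, none of the 5 members tested was DE in any comparison. On day 2, 3 were higher and 2 lower, with a median log2 fold change of 0.04 against 0.01 over all genes, and none of 12271 genes was DE (0%). Lrp2 alone had an unadjusted p under 0.05, against 5.05% of genes. On day 7, 3 were higher and 2 lower, with a median of 0.32 against 0.02. The DE share of all genes was 0.758%, and 3 of 5 members (Apoc1, Lrp2 and Amn) had an unadjusted p under 0.05, against 8.04%. From day 2 to day 7, 3 were higher and 2 lower, the median was 0.08 against 0.01, 0.179% of genes were DE, and Amn alone had an unadjusted p under 0.05, against 4.26%. On recovered reads, limma-voom called no member in ESCs.

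Apoc1 in ESCs was at 26.3 and 31.2 deposited TPM in normoxia, 34.5 and 36.9 at day 2 and 40.8 and 46.7 at day 7. The 3 groups did not overlap, in that order, and the difference on day 7 was 0.60 ± 0.15 (SE) on the log2 scale (limma adjusted p = 0.205). Lrp2 was at 10.4 and 12.1 in normoxia, 4.35 and 8.89 at day 2 and 5.89 and 7.51 at day 7. All hypoxic libraries lay below both normoxic ones, by -0.80 ± 0.30 on day 2 (adjusted p = 0.939) and -0.71 ± 0.30 on day 7 (0.591). Day 7 values of Apoc1 and Lrp2 passed the threshold when the fit used the 4 libraries compared alone (adjusted p = 0.0890 and 0.0988), in which 320 genes (2.61%) were DE in place of 93. They also passed when day 2 replicate 1 was left out (0.0892 and 0.0993, with 2.62% of genes DE), and Apoc1 alone passed without day 2 replicate 2 (0.0887, with 2.6%).

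Amn in ESCs was at 2.85 and 2.74 deposited TPM in normoxia, 2.26 and 2.25 at day 2 and 5.08 and 3.43 at day 7, without overlap between groups. From day 2 to day 7 it differed by 0.77 ± 0.22 on the log2 scale (limma adjusted p = 0.615). Apoe was at 949 and 619 in normoxia, 930 and 1201 at day 2 and 804 and 1138 at day 7, and its groups overlapped. Apob was between 0.311 and 0.656 in all 6 libraries. Cubn, below the minimum for a test in deposited TPM, was between 0.131 and 0.232 (120 to 238 reads). Its day 7 libraries, at 0.232 and 0.227, lay above those of normoxia and day 2.

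**Figure D4:**
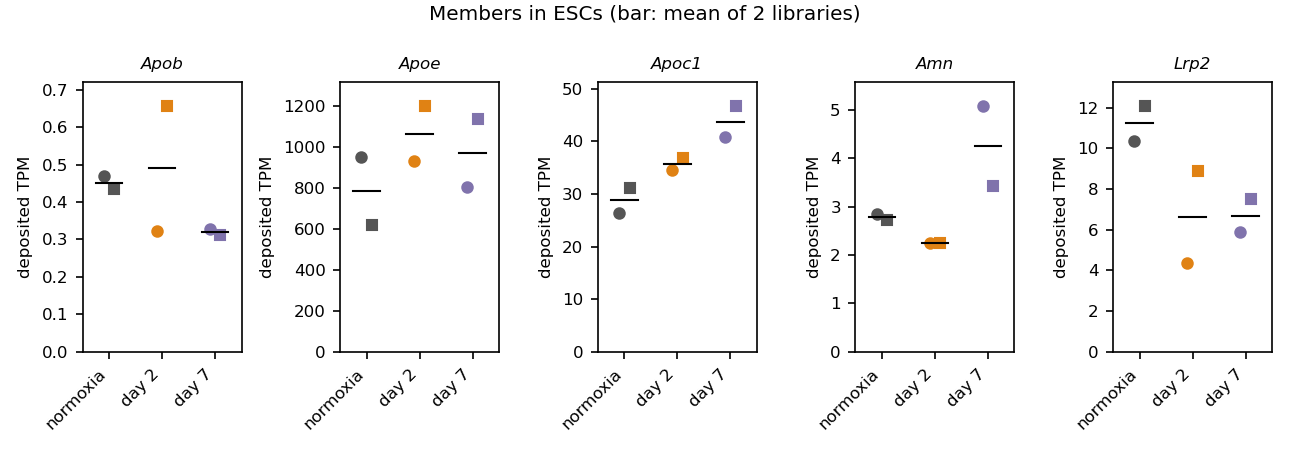
Deposited TPM of the 5 members tested in ESCs (linear axes from 0), by condition. Points are libraries (circle, replicate 1; square, replicate 2) and bars the mean of 2. Apoc1 is higher in each later condition without overlap, from 26.3 to 46.7, and Lrp2 is highest in normoxia.

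**Figure D5:**
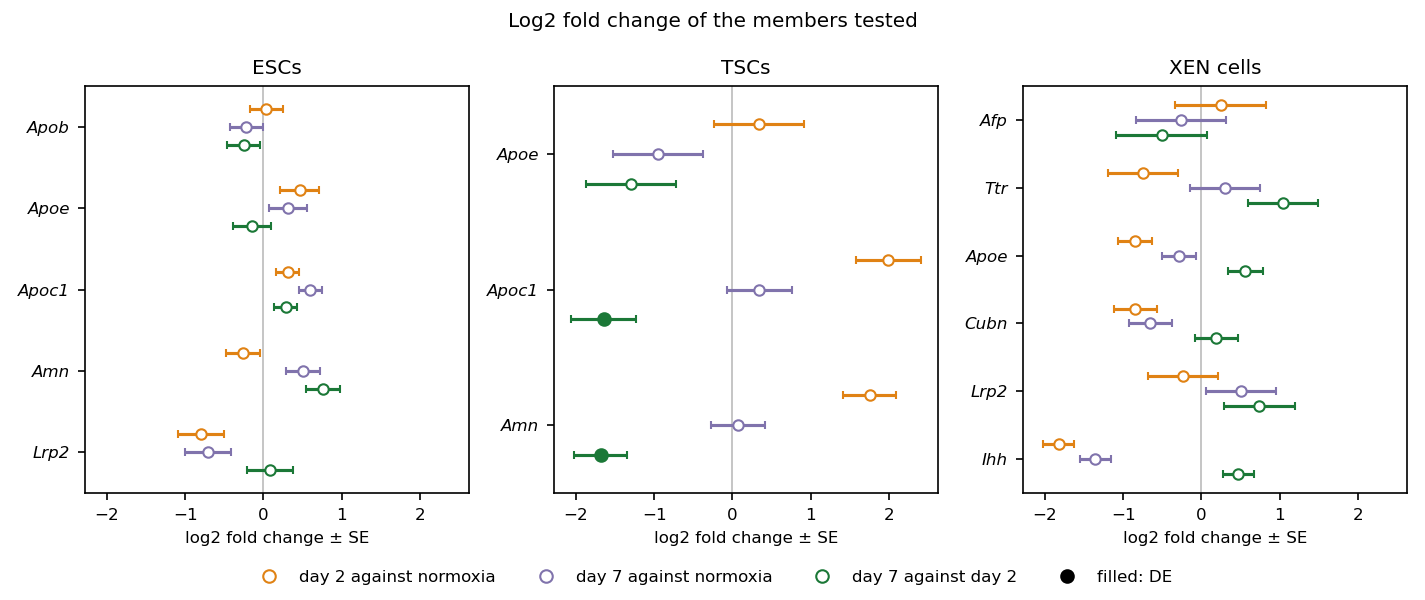
Log2 fold change on the log2(TPM + 0.5) scale with its SE (limma, 2 libraries per group) for each member tested, in 3 comparisons per cell type. Filled points mark DE genes, which are Apoc1 and Amn between day 2 and day 7 in TSCs. Ihh lies farthest below 0 in XEN cells, at -1.83 and -1.35.

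The genes around these members were described from lists of their pathways. Of 22 partners and other lipoprotein receptors, 20 were tested in XEN cells. Lrpap1, the chaperone of Lrp2, and Lrp10 were the most abundant in normoxia by deposited TPM. Lrpap1 lay between 922 and 1296 exon-length TPM and differed from normoxia by 0.33 ± 0.16 (log2) on day 2 and -0.01 ± 0.16 on day 7, and Lrp10 by -0.10 ± 0.18 and 0.01 ± 0.18. Vldlr, the VLDL receptor that binds Apoe, was the sole DE gene of the list in XEN cells. It was at 0.264 and 0.323 exon-length TPM in normoxia, 0.878 and 0.749 at day 2 and 3.15 and 3.64 at day 7, and rose by 2.19 ± 0.21 on the log2 scale on day 7 (limma adjusted p = 0.0366). In TSCs 6 of 20 tested genes of this list were DE from day 2 to day 7, all lower. Vldlr was at 11.4 and 14.9 on day 2 and 2.02 and 2.09 on day 7 (-2.41 ± 0.37, adjusted p = 0.0214), and Sorl1, a sorting receptor of the same family, at 81.0 and 58.4 and then 13.7 and 17.9 (-2.04 ± 0.27, adjusted p = 0.0171). The list's median there was -0.30, against -0.24 over all genes, and under median-ratio scaling 5 were lower and 2 higher. No gene of the list was DE on day 2 in XEN cells or in ESCs.

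The Hedgehog list holds 19 genes beside Ihh. Of 11 tested in XEN cells none was DE in any comparison, with medians of 0.26 on day 2 and 0.29 on day 7. Sufu, an inhibitor inside the receiving cell, and Scube2, which helps to release the ligand, were the most abundant in normoxia by deposited TPM, and Sufu differed by 0.36 ± 0.19 on day 2 and -0.12 ± 0.19 on day 7. Ptch1, the Hedgehog receptor and a known target of the pathway, was chosen here after its values were seen, and lay between 8.91 and 13.96 exon-length TPM in XEN cells with log2 differences of 0.25 ± 0.23 and 0.19 ± 0.23. In TSCs, where Ihh had no row, 13 of 13 tested genes of the list were lower on day 7 than on day 2, and 5 were DE, with a median of -0.80, against 16.2% of all genes DE and a median of -0.24. Ptch1 was at 12.6 and 15.8 exon-length TPM and then 6.54 and 4.63 (-1.30 ± 0.27, limma adjusted p = 0.0389), and Gas1, a co-receptor, at 2.35 and 4.12 and then 0.782 and 1.10 (-1.64 ± 0.40, adjusted p = 0.0554). Under median-ratio scaling 10 of 13 were lower and 2 were DE.

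Of 23 other apolipoproteins and lipoprotein assembly genes, 14 were tested in XEN cells and none was DE. Surf4, a cargo receptor for lipoprotein export, lay between 618 and 775 exon-length TPM and differed by 0.22 ± 0.14 on day 2, and Mia3 by 0.27 ± 0.22. Median log2 fold changes of the list were -0.04 on day 2 and -0.24 on day 7. In TSCs 1 of 13 was DE, from day 2 to day 7, where Apod, a lipocalin, rose by 1.42 ± 0.41 (limma adjusted p = 0.0803), from 2.18 and 1.42 to 10.8 and 4.32 exon-length TPM. Of 20 other plasma proteins 4 had a row in XEN cells. The most abundant were Rbp4, the retinol carrier that travels with Ttr, at 11.5 to 42.0, and Ahsg, at 3.76 to 11.1. Rbp4 was DE in TSCs from day 2 to day 7, at 20.8 and 19.6 and then 2.95 and 4.63 (-2.21 ± 0.27, adjusted p = 0.0161). No gene of these 2 lists was DE in ESCs.

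Of 18 endoderm transcription factors 13 were tested in XEN cells and none was DE, with medians of -0.06 on day 2 and -0.07 on day 7. Sox17 and Foxa2 were most abundant in normoxia by deposited TPM, Sox17 at 419 to 576 and Foxa2 at 181 to 247 exon-length TPM. By exon-length TPM the order differed, since Gata4 of the same list lay higher, at 915 to 1134. In TSCs 2 of 12 were DE, both lower on day 7 than on day 2, Gata4 by -1.60 ± 0.26 (limma adjusted p = 0.0237) and Klf5 by -1.01 ± 0.27 (0.0650), in a comparison in which 16.2% of all genes were DE. Under median-ratio scaling 1 of them was. Of 7 anterior visceral endoderm markers 4 were tested in XEN cells and none was DE, with a median of -0.59 on day 7. The most abundant by deposited TPM were Hhex, a homeobox factor at 23.0 and 22.4 exon-length TPM in normoxia and 8.19 and 12.3 on day 7 (-1.16 ± 0.26, adjusted p = 0.278), and Dkk1, a secreted Wnt inhibitor at 11.2 to 36.3 over all 6 libraries (1.08 ± 0.33 on day 7, adjusted p = 0.430).

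Genes of the hypoxia response, 16 in the list, are given for comparison with the members. In TSCs 7 of 16 were DE on day 2, all higher, with a median of 1.69, and 11 were DE from day 2 to day 7, all lower, with a median of -0.96, against 16.2% and -0.24 over all genes. Under median-ratio scaling 5 and 6 were DE. In XEN cells 14 of 15 were higher on day 2, with a median of 0.71 and none DE. All 15 were higher on day 7, with a median of 0.69, and Egln3, an oxygen-sensing hydroxylase, was the sole DE gene (2.81 ± 0.20, limma adjusted p = 0.0119). In ESCs 15 of 16 were higher on both days and 3 were DE on day 7. The 15 parietal endoderm markers were all higher on day 7 in XEN cells, with a median of 0.33 and none DE.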

How the data were processed

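RNA-seq gave 18 libraries, 2 for each condition of each cell type. The authors deposited TPM, a table per cell type. Per the labels and methods, reads were trimmed (cutadapt 2.4), aligned to mm10 (STAR 2.7.5a) and counted on genes (featureCounts), and genes were kept that were protein-coding and passed 0.4 CPM in 2 or more libraries. Columns named day 0 were taken as normoxia, the only condition without a day of hypoxia. No column was left unmapped.

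Whole reads were recovered from the deposited TPM with gene spans of a GENCODE annotation of the same build (Python 3.11.15, numpy 2.4.6, pandas 2.3.3), for 13395 genes of ESCs, 13330 of TSCs and 11367 of XEN cells, every member among them. They gave depth, exon-length TPM and an alternative test. The log2 of TPM plus 0.5 was fitted with limma 3.58.1 (R 4.3.3) for each cell type, 6 libraries at a time and with an intensity trend in the variance, and p-values were adjusted over all genes that passed 0.4 TPM in 2 or more libraries. The authors' own edgeR test was not run here, since the tables hold no counts. Figures were drawn with matplotlib 3.10.9.

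All members were named. From 12 other lists, up to 2 rises and 2 falls among DE genes could be named. So could the 2 genes most abundant in normoxic XEN cells by deposited TPM, an order that can differ by exon-length TPM. The 3 nearest genes per member in XEN cells were also named. The members and lists were chosen with earlier results of these data known. Alternatives were other pseudocounts, filters and scalings, a replicate block, no trend, fits of 4 libraries, exon-length TPM, voom and each library left out. Leaving out both TSC libraries with high fibroblast markers was added after seeing the data.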

Additional observations from a re-analysis of the deposited data

Results flagged for a closer look

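Some members moved in opposite directions in different cell types, in the sense that both libraries of a group lay above both of the other in one cell type and below them in another. The difference itself was not tested, since the tables were normalized separately. In a single cell type, such a separation of 2 libraries from 2 has an exact permutation p of 0.333, and its share over all genes is not given. Some of the changes were small, with unadjusted limma p of 0.263 for Amn on day 2 and 0.0854 for Apoc1 between days, both in ESCs. Amn was lower on day 2 than in normoxia in ESCs (log2 fold change -0.26) and higher in TSCs (1.75), and from day 2 to day 7 it was higher in ESCs (0.77) and lower in TSCs (-1.68). Apoc1 was higher on day 7 than on day 2 in ESCs (0.29) and lower in TSCs (-1.65). Apoe was lower on day 7 than on day 2 in TSCs (-1.30) and higher in XEN cells (0.56). Of these changes, those of Amn and Apoc1 between days in TSCs were DE. No group had enough libraries for a test of an outlying library.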

How the results depend on the processing

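With 2 libraries per group and members near the bottom of a table (Afp, Apob), only large differences could pass. No member's log2 fold change changed sign in 375 values from settings fitted to all 6 libraries of a cell type. Other filters, the replicate block and no trend leave a log2 fold change as it is, so their part of these values could not change sign. The same holds for the 42 values from fits of the 4 libraries compared. Other pseudocounts, scaling, exon-length TPM and voom could change it. Under median-ratio scaling 1 member in place of 2 was DE between day 2 and day 7 in TSCs (Amn), and with the 4 libraries compared alone 2 members were DE on day 7 in ESCs (Apoc1 and Lrp2), where the count over all genes went from 93 to 320. The cause was not tested. In TSCs without normoxia replicate 1 and day 2 replicate 2, 3 members were DE on day 2, where the count over all genes went from 25 to 756, and the day 7 values against normoxia of Apoe and Apoc1 became 0.019 and -0.17.

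The labels number the replicates, without saying that equal numbers were grown together. Deviations of same-numbered libraries correlated between -0.46 and 0.27 across genes in the 9 comparisons, so the numbers were not taken as pairs. A fit with the replicate block gave 2 DE members between day 2 and day 7 in TSCs (adjusted p = 0.0431 for Amn and 0.0708 for Apoc1) and 0 in the other 8 comparisons, and changed none of 42 member calls.

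Leaving out 1 library at a time gave 0 to 2 DE members on day 7 in ESCs, 0 to 1 on day 2 and 0 to 1 on day 7 in TSCs, 0 to 3 between day 2 and day 7 in TSCs, and 0 to 1 on day 2 and on day 7 in XEN cells. Signs changed for these log2 fold changes, given as their range. In ESCs they were Apob on day 2 (-0.21 to 0.28) and, from day 2 to day 7, Apoe (-0.39 to 0.11) and Lrp2 (-0.39 to 0.56). In TSCs they were Apoe on day 2 (-0.63 to 1.32) and, on day 7, Apoe (-1.93 to 0.019), Amn (-0.35 to 0.49) and Apoc1 (-0.17 to 0.86). In XEN cells they were Lrp2 (-0.68 to 0.21) and Afp (-0.46 to 0.96) on day 2, Lrp2 (-0.049 to 1.07) and Afp (-0.97 to 0.45) on day 7, and Cubn (-0.18 to 0.57) and Afp (-1.20 to 0.18) from day 2 to day 7. A lone library was then assumed to vary like the other groups. None of these values was DE with all libraries.

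DE genes in the whole table, in fits of all 6 libraries, ranged from 0 to 5 on day 2 (0 as reported), 18 to 137 on day 7 (93) and 6 to 31 between days (22) in ESCs. They ranged from 3 to 34 (25), 13 to 79 (48) and 1706 to 2042 (2019) in TSCs, and were 0 in every setting (0), 6 to 43 (12) and 2 to 6 (4) in XEN cells. With the 4 libraries compared alone ESCs gave 0, 320 and 6 DE genes, TSCs gave 0, 42 and 2214, and XEN cells gave 0, 1 and 37, in that order of comparisons.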
